A study of Mus musculus with 4 samples.

Results

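Accessible chromatin inside protein-coding exons was examined in naive resting CD8-positive T cells of the alpha-beta lineage by DNase-seq, in which the enzyme DNase I cuts open DNA and the cut ends are sequenced. Sites were the peaks of each library's longer deposited peak list, merged across libraries where they shared at least 1 bp and kept where at least 3 of 4 libraries called them. A coding-exon site lay over 1 kb from every annotated transcription start, on chromosomes 1 to 19, with its midpoint in a coding interval of a protein-coding gene. The members were thus chosen by the peak calls and by position, and neither their heights nor the footprints took part in the choice beyond the call itself. Of 41228 consensus sites, 505 met the rule, or 2.34% of the 21581 sites over 1 kb from a start. The others of the 21581 were 9421 intron sites of protein-coding genes, 1043 sites in other exons (untranslated or non-coding) and 10612 intergenic sites.

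The cells were primary cells from female B6CASTF1/J mice, a first-generation cross of a C57BL/6 and a wild-derived CAST strain, aged 2 months. The 4 libraries are labelled biological replicates 1 to 4 of 1 group, with no treatment and no second group. They share 1 donor identifier and the labels do not say that they came from separate animals, so a p-value over libraries reflects only how far the 4 libraries spread. The printed sequences are those of the C57BL/6J reference, and the files do not separate the 2 parental genomes.

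Open chromatin marks DNA that nucleosomes have given up to transcription factors, and most of it lies at promoters, in introns and between genes. A coding exon carries the protein code, and the same bases can also be bound by transcription factors, so that both functions act on the same letters. CTCF, a zinc finger protein that holds chromatin loops and domain borders, binds a long GC-rich sequence and is found in every cell type. A footprint is a short stretch inside an accessible site that is cut less than its surroundings, as a bound protein would leave it.

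Sequences are shown for the 8 tallest members and for the 4 tallest members in genes of the lists described further on, to show which letters the footprints cover and where there are few. Each is the central 120 bases, 5′ to 3′ on the coding strand of the host gene, from the RefSeq copy of GRCm38.p6 (mm10). Capitals mark bases inside footprints of at least 2 libraries.
Angptl6: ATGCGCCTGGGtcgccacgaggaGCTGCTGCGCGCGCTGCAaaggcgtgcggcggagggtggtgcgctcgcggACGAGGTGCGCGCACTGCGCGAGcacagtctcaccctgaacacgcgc
Lgals7: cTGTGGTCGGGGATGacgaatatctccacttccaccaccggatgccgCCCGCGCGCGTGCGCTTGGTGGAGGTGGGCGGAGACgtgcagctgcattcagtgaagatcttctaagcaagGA
F12: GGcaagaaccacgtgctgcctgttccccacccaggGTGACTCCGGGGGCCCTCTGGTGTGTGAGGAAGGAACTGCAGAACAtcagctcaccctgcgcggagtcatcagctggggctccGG
Zfp219: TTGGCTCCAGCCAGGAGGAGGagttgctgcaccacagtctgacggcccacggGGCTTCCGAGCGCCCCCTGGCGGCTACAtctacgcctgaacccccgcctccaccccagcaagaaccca
Ccdc194: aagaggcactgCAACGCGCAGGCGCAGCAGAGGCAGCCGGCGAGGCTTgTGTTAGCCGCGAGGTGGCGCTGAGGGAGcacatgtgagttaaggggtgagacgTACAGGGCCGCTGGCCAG
Psmc2: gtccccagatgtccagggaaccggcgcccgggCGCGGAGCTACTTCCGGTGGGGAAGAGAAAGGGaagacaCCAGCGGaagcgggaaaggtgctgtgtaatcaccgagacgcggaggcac
Gdf15: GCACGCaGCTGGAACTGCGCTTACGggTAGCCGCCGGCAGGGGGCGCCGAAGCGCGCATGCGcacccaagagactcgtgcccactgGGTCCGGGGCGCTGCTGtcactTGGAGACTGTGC
Klf1: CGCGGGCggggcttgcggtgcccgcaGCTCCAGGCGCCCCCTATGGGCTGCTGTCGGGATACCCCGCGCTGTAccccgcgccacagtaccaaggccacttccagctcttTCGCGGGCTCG
Nfkb2: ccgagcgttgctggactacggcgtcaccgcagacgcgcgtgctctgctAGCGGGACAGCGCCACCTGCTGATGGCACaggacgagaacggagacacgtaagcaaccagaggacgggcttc
Kmt2a: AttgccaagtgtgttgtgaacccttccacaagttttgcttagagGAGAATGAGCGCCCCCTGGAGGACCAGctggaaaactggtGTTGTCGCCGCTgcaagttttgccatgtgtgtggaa
Plcg1: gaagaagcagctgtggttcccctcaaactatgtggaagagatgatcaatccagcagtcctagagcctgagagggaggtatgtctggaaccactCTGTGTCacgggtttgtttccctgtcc
Spib: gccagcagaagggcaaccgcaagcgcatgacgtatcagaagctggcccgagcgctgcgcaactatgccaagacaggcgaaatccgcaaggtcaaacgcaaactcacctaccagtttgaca
The windows are chr9:20878301-20878420 on the minus strand (Angptl6), chr7:28866081-28866200 on the plus strand (Lgals7), chr13:55418181-55418300 on the minus strand (F12), chr14:52008951-52009070 on the minus strand (Zfp219) and chr8:71521801-71521920 on the minus strand (Ccdc194). The others are chr5:21786681-21786800 on the plus strand (Psmc2), chr8:70629821-70629940 on the minus strand (Gdf15), chr8:84903131-84903250 on the plus strand (Klf1), chr19:46309201-46309320 on the plus strand (Nfkb2), chr9:44836571-44836690 on the minus strand (Kmt2a), chr2:160756891-160757010 on the plus strand (Plcg1) and chr7:44527991-44528110 on the minus strand (Spib). The letters AGNNGGCGC, called the CTCF core here, overlap the end of the CTCF consensus and occur on the printed strand in Ccdc194 and Gdf15. Their reverse complement GCGCCNNCT occurs in Zfp219, Klf1, Nfkb2 and Kmt2a. In these 6 windows all 9 bases of the core are in capitals. No core match lies in the windows of Angptl6, Lgals7, F12, Psmc2, Plcg1 and Spib, which says only that these letters are not in these windows. The Plcg1 window has 7 bases in capitals and the Spib window 0.

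Replicate 4 stood apart in depth, and replicates 3 and 4 differed from replicates 1 and 2 at the Cd8a and Cd79a promoters. Replicates 1 to 4 had 69413, 70552, 51121 and 20647 peaks on their longer lists, and the smallest step between deposited peak heights reads as 109, 62.9, 91.5 and 24.3 M tags. Cd8a, the alpha chain of the CD8 coreceptor, had a promoter peak in replicates 1 and 2 and was without one in replicates 3 and 4, although Cd8b1, the beta chain, was called in all 4. Cd3e, of the T cell receptor complex, was called in replicates 1 to 3 at relative heights of 0.640, 0.583 and 0.653 and was without a call in replicate 4, and Cd4 was called in 0 libraries. Of the B cell genes, only Cd79a and Pax5 are shown. Cd79a was called in replicates 3 and 4 alone, at 0.347 and 0.684, and Pax5 in all 4, at 0.584, 0.648, 1.02 and 1.67. Relative height is a peak's deposited height divided by the median that its library had over sites with a call in every library. A site without a peak in a library was set to 0 there. Without replicate 4, and with the other 3 libraries all needed, 500 sites met the rule, and 647 did when replicates 1 and 2 alone were used and both needed. Leaving out replicate 1, 2 or 3 instead left 150, 149 and 148 sites, since replicate 4 then had to call each one.

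Most coding-exon sites missed a call in the shallowest library only. All 4 libraries called 146 members (28.9%), against 28.6% of sites in other exons, 28.7% of intergenic sites and 23.2% of intron sites. The other 359 members were called in 3 libraries, and replicate 4 was the one without a call for 355 of them. Replicates 1, 2 and 3 lacked 1, 2 and 1 members. The rule's edge fell among low sites: 226 coding-exon sites called in exactly 2 libraries had median relative heights of 0.128, 0.116, 0.162 and 0.368 where replicates 1 to 4 called them. Those called in exactly 3 had 0.248, 0.215, 0.247 and 0.456. At the distance limit, 19 coding-exon sites fell short of 1 kb by less than 100 bp, with a median of mean relative heights of 0.306, and 11 members lay beyond it by no more than 100 bp, with 0.351.

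Of the 355 members that replicate 4 did not call, 19 (5.35%, Wilson 95% interval 3.45 to 8.21%) held a cut-rate interval of that library below 0.05. The deposited value of an interval is a p-value or a q-value, and which of them is not known here. Among intron sites without a call there, 213 of 7209 did (2.95%, 2.59 to 3.37%). Such intervals are read as stretches of raised cutting that the peak lists need not contain. Below 0.01 the share of members fell to 1 of 355 (0.282%), and in intron sites to 0 of 7209.

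Coding-exon sites lay in 478 host genes, and 480 genes were touched where 2 genes share a coding interval, or 2.31% of the 20807 protein-coding genes on these chromosomes. Host genes had a median coding length of 1923 bp, against 1188 bp over all protein-coding genes. Of the 478 hosts, 319 (66.7%) also had an open start, meaning a consensus site no more than 1 kb from a start of their own, against 56.4% of all protein-coding genes. The annotated start nearest to the site belonged to the host for 355 members and to another gene for 150. A start in the RefSeq annotation lay within 1 kb of 38 members (7.52%), although none was annotated there by GENCODE. The same held for 7.48% of intergenic sites, 4.29% of intron sites, 4.22% of sites in other exons and 2.58% of coding exons.

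Members were found in last coding exons in a larger share than coding bases are, a description with no test. The last coding exon held 162 members (32.1%), while 18.6% of the coding bases over 1 kb from a start lie in last exons. Internal exons held 282 (55.8% against 72.6% of bases), single coding exons 35 (6.93% against 4.73%) and first coding exons 26 (5.15% against 4.08%). Sites were 103 to 1480 bp wide with a median of 240 bp, and their exons had a median coding length of 203 bp. The coding bases over 1 kb from a start have a length-weighted median exon of 185 bp. Since 286 members were wider than their coding exon, only 123 (24.4%) were coding over their whole width, and the median member was 70.5% coding. The median midpoint lay 69.0 bp from the nearest splice site over the 494 members that have one.

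The median heights of members and intron sites differed by less than the spread between libraries. The upper tail of members was longer than that of intron sites, but members were not the tallest class. Median relative heights of members were 0.313, 0.299, 0.309 and 0 in replicates 1 to 4, and those of intron sites 0.342, 0.314, 0.292 and 0. Over the 3 libraries with a median above 0, the log2 ratio of members to intron sites was -0.04 ± 0.11 (SD, n = 3), with p = 0.750 by an exact two-sided sign-flip permutation whose smallest possible p is 0.25. The ratio turned to 0.13, 0.17 and 0.08 without replicate 1, 2 or 3, where replicate 4 had to call every site. In mean relative height, members reached 0.464, 0.450, 0.460 and 0.276, and intron sites 0.456, 0.449, 0.399 and 0.183. Their ratios were 1.02, 1.00, 1.15 and 1.51, for a mean log2 ratio of 0.21 ± 0.28 (SD, n = 4; exact sign-flip p = 0.13, the smallest that 4 libraries allow). The means were near equality in replicates 1 and 2 and higher in members in replicates 3 and 4, which are the libraries without a Cd8a call. Depth and cell content were not tested as part of this. Sites in other exons had higher means than members in all 4 libraries, at 0.566, 0.562, 0.533 and 0.311. Intergenic sites were at 0.508, 0.501, 0.463 and 0.247, above members in replicates 1 to 3 and below them in replicate 4.

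**Figure D1:**
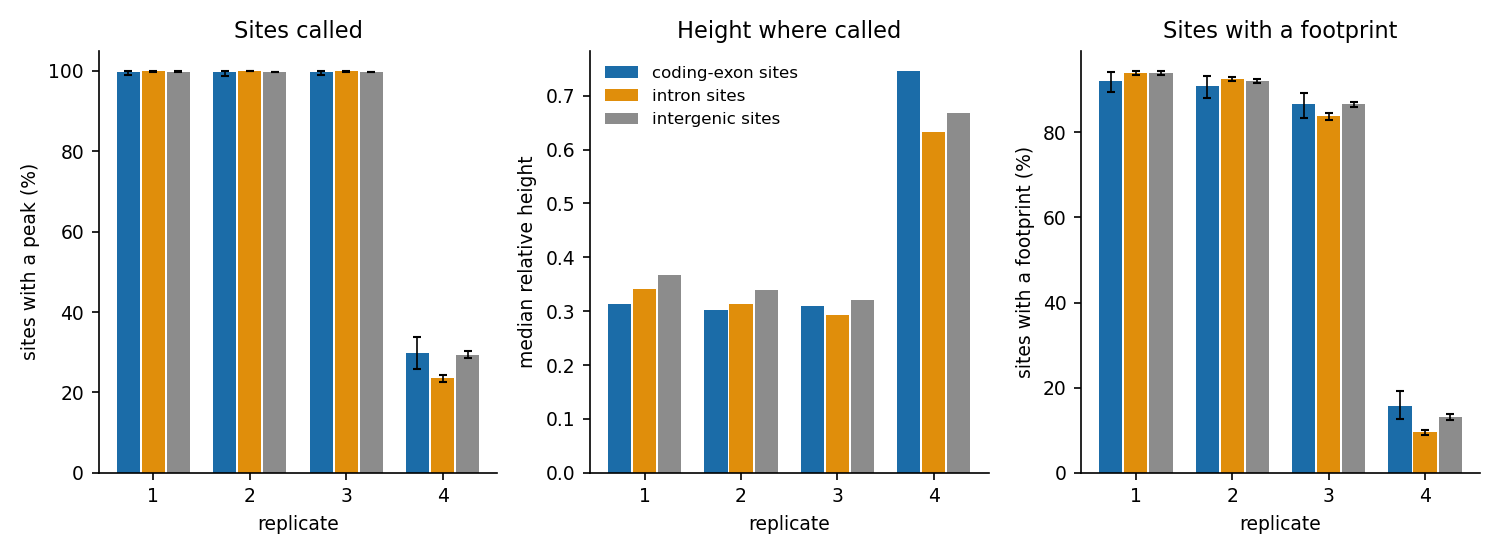
Left, the share of coding-exon (blue), intron (orange) and intergenic (grey) sites called in each replicate; middle, the median relative height of the sites called; right, the share with a footprint. Bars on the left and right panels carry Wilson 95% intervals; replicate 4 called 29.7% of coding-exon sites against 23.5% of intron sites, and replicates 1 to 3 called nearly all of both by the rule.

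By their mean over the 4 libraries, members ran from 0.0591 to 3.38 in relative height, with a median of 0.252 and a 90th percentile of 0.915. A mean of 1 or more was reached by 42 members (8.32%) and by 531 intron sites (5.64%). Only 6 members exceeded 2. The tallest lay in the first coding exon of Angptl6, which encodes a secreted angiopoietin-like protein (GRCm38 chromosome 9, 20878181 to 20878540). Its deposited heights were 12.9, 33.4, 10.7 and 7.16, or relative heights of 3.11, 4.00, 3.36 and 3.05, so that each library placed it at no less than 3 times its median. Every base of it was coding, and its central 200 bp had a GC content of 71.0%. The nearest GENCODE start, of Angptl6 itself, was 1187 bp away and the nearest RefSeq start 119 bp.

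Next came the last coding exon of Lgals7, a galectin of stratified epithelia (chromosome 7, 28866041 to 28866240), with 3.08, 3.38, 2.34 and 2.12. The last exon of F12, which encodes coagulation factor XII of plasma (chromosome 13, 55418141 to 55418340), had 2.44, 2.35, 2.15 and 1.98. Neither host had an open start, and the window at F12, unlike most tall members, was not CpG-rich. Zfp219, a zinc finger protein gene (chromosome 14, 52008901 to 52009120), had 2.08, 2.48, 1.89 and 2.35 inside an internal coding exon of 1435 bp. Ccdc194, named for its coiled-coil domain (chromosome 8, 71521761 to 71521960), had 2.27, 2.16, 2.48 and 1.84. The order of the libraries differed between this pair of sites.

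Psmc2, an ATPase subunit of the proteasome (chromosome 5, 21786641 to 21786840), had 2.14, 1.67, 2.25 and 2.14. A RefSeq start lay inside this site, 0 bp away, although the nearest GENCODE start was 1358 bp off, so the 2 annotations differ on whether it is away from a start. Gdf15, a stress-induced cytokine of the TGF-beta family (chromosome 8, 70629701 to 70630060), had 1.84, 1.41, 2.10 and 2.61, highest in replicate 4 and lowest in replicate 2. Klf1, the erythroid transcription factor (chromosome 8, 84903081 to 84903300), had 1.93, 1.89, 2.00 and 1.93, the closest agreement among these 8 (SD 0.0460). Neither Klf1 nor Gdf15 had an open start, so that the exon had a consensus site and the gene's own start had none.

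**Figure D2:**
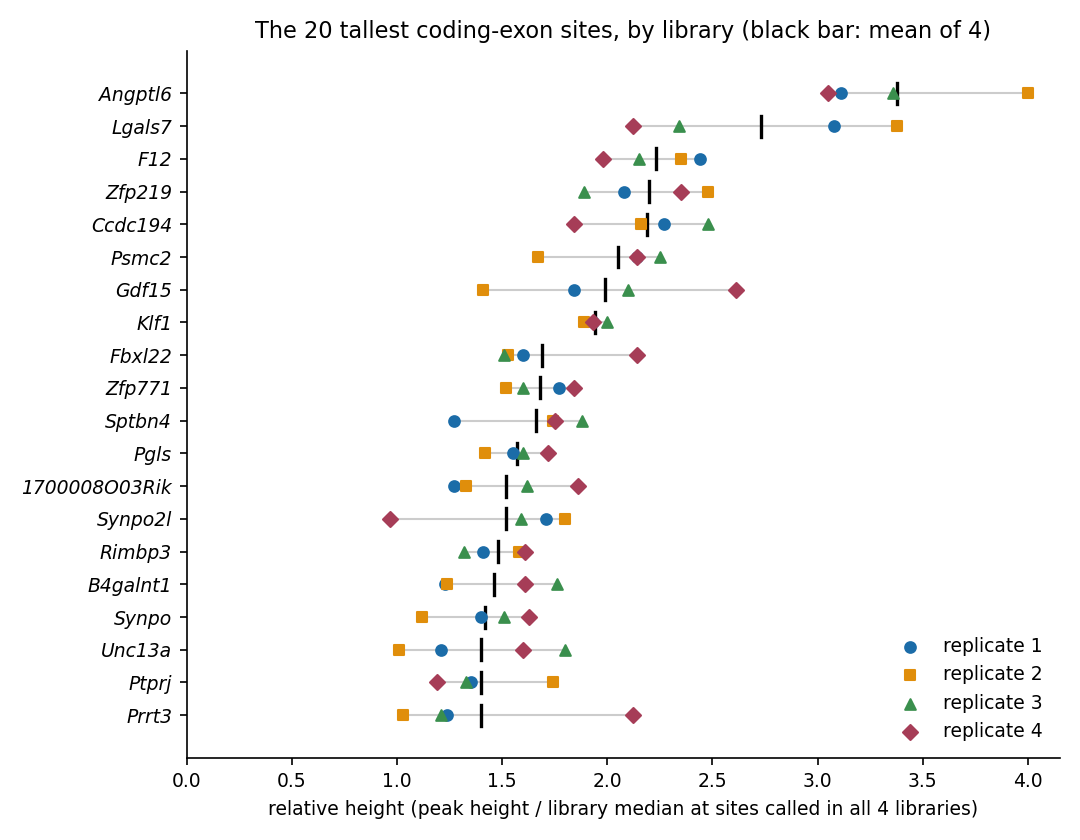
Relative height of the 20 tallest coding-exon sites in each library (symbols) with the mean of 4 (black bar), ordered from the tallest. All 20 were called in all 4 libraries, with means from 3.38 for Angptl6 to 1.40 for Prrt3.

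From rank 9 to rank 20 stood Fbxl22, an F-box protein gene, Zfp771, Sptbn4 (beta-IV spectrin), Pgls, a pentose phosphate pathway enzyme, 1700008O03Rik and Synpo2l. Rimbp3, B4galnt1 (a ganglioside synthase), Synpo (synaptopodin), Unc13a (synaptic vesicle priming), Ptprj (a receptor tyrosine phosphatase) and Prrt3 followed. Their means ran from 1.69 to 1.40. Fbxl22 was at 1.6, 1.53, 1.51 and 2.14, with replicate 4 above the other libraries, and Prrt3 likewise at 1.24, 1.03, 1.21 and 2.12. Synpo2l went the other way at 1.71, 1.80, 1.59 and 0.965. Of the 20 hosts, 9 had no open start. Ptprj is a thin case, as only 8.64% of its site was coding, around an exon of 19 bp. In 4 of the 20 a RefSeq start lay within 1 kb: Angptl6, Psmc2, Pgls at 156 bp and Unc13a at 0 bp.

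Base composition set coding-exon sites apart from intron sites and from coding exons at large. In the central 200 bp, the median GC content of members was 58.0%, against 50.5% in intron sites and 49.5% in the 133373 coding exons over 1 kb from a start. With CpG-rich defined as a GC content of at least 50% and an observed-over-expected CpG ratio of at least 0.6, 176 members (34.9%) were CpG-rich, against 3.48% of intron sites and 5.03% of coding exons. CpG-rich letters stood in 17 of the 20 tallest members and in 62.0% of the 50 tallest, against 31.9% of the rest. Members lay closer to starts than intron sites, at a median of 4488 against 7588 bp, and 23.2% lay within 2 kb against 13.4%. Sites in other exons lay closer still, at a median of 4040 bp with 25.1% within 2 kb. Intergenic sites lay farther off, at 10060 bp with 8.32%. The coding exons at large had a median of 6220 bp from their midpoints. The CpG-rich share was 47.5% in the 101 tallest members and 30.7, 35.6, 28.7 and 31.7% in the successively lower groups of 101. It was thus higher among the tallest only, with no steady fall below them. Of the 50 tallest, 32.0% lay within 2 kb of a start, against 22.2% of the others. The part of distance and CpG content in height was not tested.

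CpG-rich members were called more often in the shallow library. Replicate 4 called 41.5% of the 176 CpG-rich members (Wilson 95% interval 34.5 to 48.9%) and 23.4% of the 329 others (19.2 to 28.3%). Intron sites showed the same split, 43.3% of 328 and 22.8% of 9093, so it was not particular to exons. In replicates 1 to 3 the median relative heights of CpG-rich members were 0.344, 0.312 and 0.368, and those of the others 0.309, 0.290 and 0.282, a gap widest in replicate 3. These are descriptions over sites of the same libraries, and sites are not replicates.

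Motif matches were counted on both strands of the central 200 bp, for 20 families and 1 added core. The CTCF consensus was matched in 60 members (11.9%, Wilson 95% interval 9.34 to 15.0%), in 15.0% of intron sites and in 0.147% of coding exons. CTCF letters were thus rare in coding exons and common in those that were open. The core AGNNGGCGC, which overlaps the end of the consensus searched and runs past it by the letters GC, was added after the tall sequences had been seen. It was matched in 124 members (24.6%, 21 to 28.5%), in 12% of intron sites, in 13.9% of all sites over 1 kb from a start and in 1.34% of coding exons. The consensus and the core overlap: 25 members had both, 35 the consensus only and 99 the core only. Either was found in 159 members (31.5%, 27.6 to 35.7%), in 29.2% of sites in other exons (26.6 to 32.1%), 27.5% of intergenic sites, 23.0% of intron sites and 1.46% of coding exons, so that members lay close to other exons. The order of members and intron sites therefore differed between the 2 spellings, with the consensus less and the core more frequent in members. The core contains a CG dinucleotide, and its share was 30.7% in CpG-rich members and 21.3% in the others, 18.6% and 11.7% in intron sites of the same kinds, and 5.59% in CpG-rich coding exons.

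**Figure D3:**
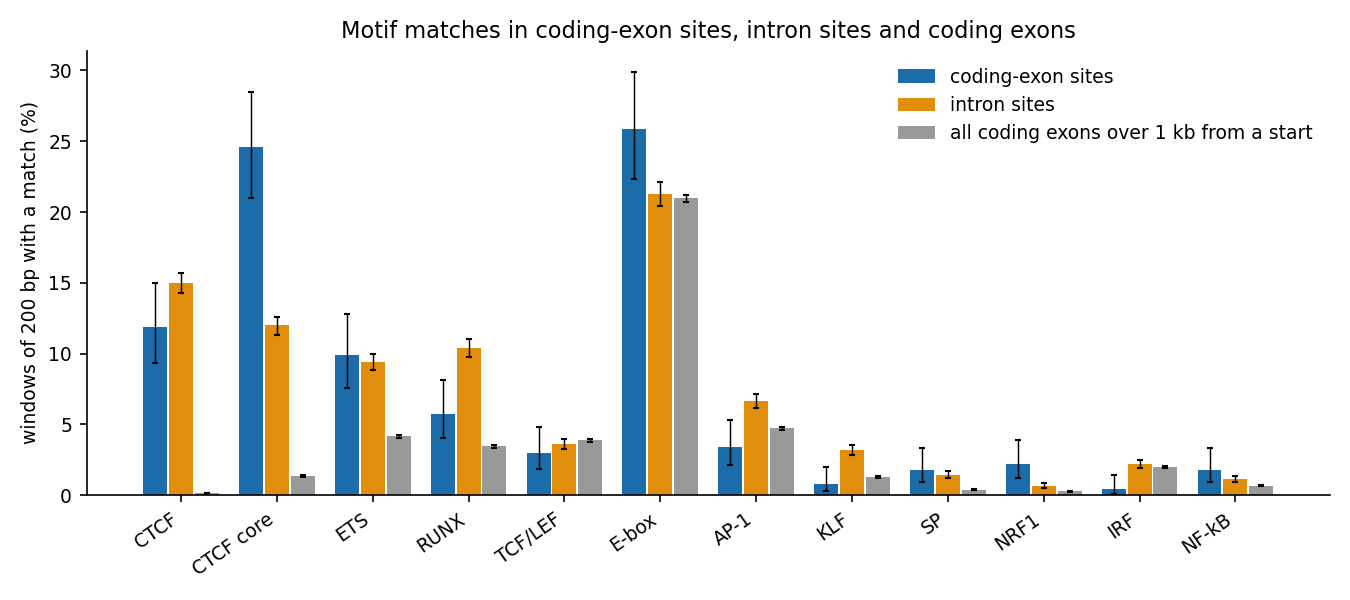
Share of 200 bp windows with a match to 12 motif families in coding-exon sites (blue), intron sites (orange) and all coding exons over 1 kb from a start (grey), with Wilson 95% intervals. The CTCF core is matched in 24.6%, 12% and 1.34% of them.

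Taller members held CTCF letters more often. The core was matched in 46.5% of the 101 tallest members (37.1 to 56.2%) and in 12.9% of the 101 lowest (7.68 to 20.8%), and in 20.2% and 8.70% of the corresponding intron sites. Among the 20 tallest, 10 held the core, 3 the consensus and 12 either. Members with a core match had median relative heights of 0.496, 0.483, 0.50 and 0.360 in replicates 1 to 4, against 0.282, 0.257, 0.278 and 0 for those without one. All 4 libraries called 51.6% of the former and 21.5% of the latter. Intron sites with a core were at 0.413, 0.438, 0.364 and 0, against 0.333, 0.303, 0.285 and 0. Because the core was picked from tall members, its excess among them is a description and lends no support.

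The consensus, whose letters were not picked from these sequences, ran the same way. Members matching it had medians of 0.489, 0.507, 0.478 and 0, against 0.302, 0.280, 0.302 and 0 without it, and 48.3% of them against 26.3% were called in all 4 libraries. The same held in intron sites, so it was not particular to exons. Those with a match had medians of 0.436, 0.454, 0.371 and 0, against 0.327, 0.297, 0.282 and 0 without one. All 4 libraries called 38.5% of the former and 20.5% of the latter. The consensus was matched in 20.8% of the 101 tallest members and in 5.94% of the 101 lowest. In the corresponding intron sites the shares were 24.9% and 8.97%. The tallest consensus matches lay in Pgls, Synpo2l, Ptprj, Hey1 (a Notch target repressor) and Epg5 (an autophagy gene).

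**Figure D4:**
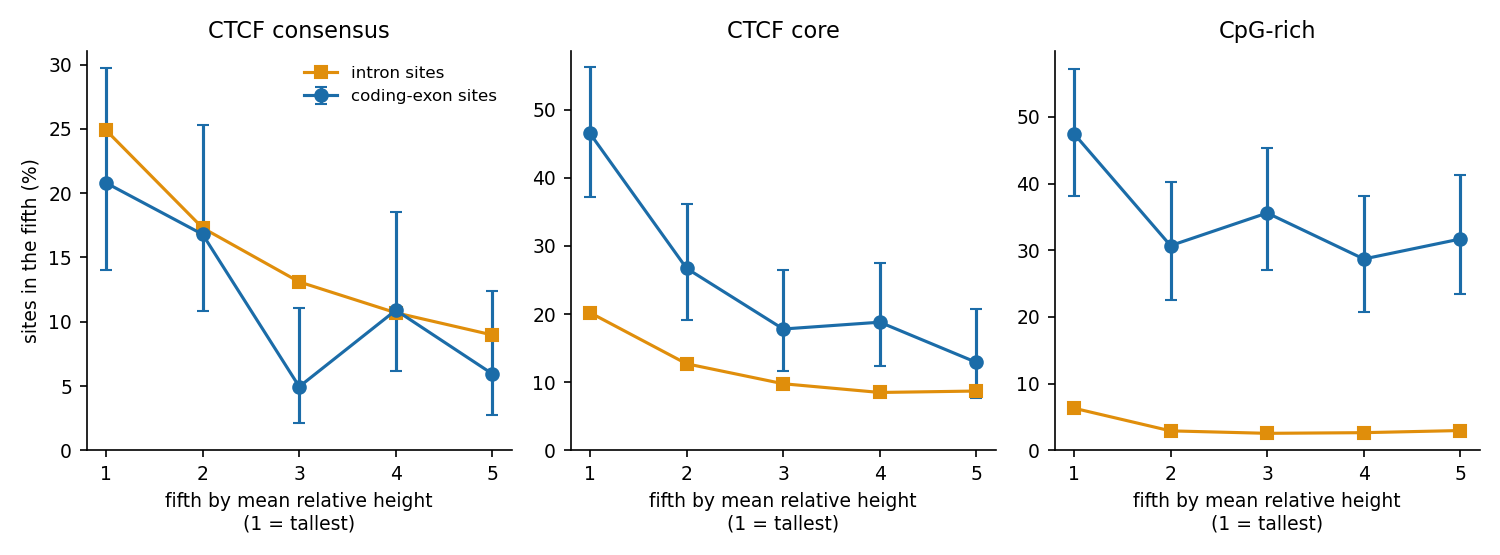
Share of sites with the CTCF consensus (left), the CTCF core (middle) and CpG-rich letters (right) in 5 equal groups by mean relative height, from the tallest (1) to the lowest (5), for coding-exon sites (blue, Wilson 95% intervals, 101 per group) and intron sites (orange). The core falls from 46.5% to 12.9% in coding-exon sites and from 20.2% to 8.70% in intron sites.

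Most consensus matches lay under footprints. Of the 60 consensus matches, 59 lay under a footprint in at least 1 library, 56 in at least 2, 47 in at least 3 and 13 in all 4, and their median distance from the site's midpoint was 12 bp. Matches sit near the midpoint, where footprints were most frequent, and the rate for other letters at the same distance was not computed. The core was read from footprinted letters, so footprints over it are no separate result. Footprints were called from the same reads as the peaks, so they are a further readout of the same libraries. Among the consensus matches 23 read along the gene and 37 against it, while 59 members had the core along the gene, 60 against it and 5 both. In 48 members the consensus match lay wholly in coding bases, so that its letters are also codons. Its first base on the coding strand was at codon position 1, 2 and 3 in 5, 4 and 12 matches along the gene, and in 5, 14 and 8 against it, so no single frame held all of them.

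Other families differed from intron sites in both directions. RUNX (TGTGGTT), the family of the CD8 lineage factor Runx3, was matched in 5.74% of members, 10.4% of intron sites and 3.46% of coding exons. The RUNX share of members thus lay between those of intron sites and coding exons. AP-1 (TGANTCA) was matched in 3.37%, 6.64% and 4.72% of these classes. KLF (GGGTGTGG) stood at 0.792%, 3.18% and 1.30%, with 4 members. IRF (GAAANTGAA) stood at 0.396%, 2.19% and 1.96%, with 2 members. The E-box of E proteins (CAGGTG) was matched in 25.9% and 21.3%, with 21% in coding exons, a difference of 4.69 percentage points that was 1.08 in the central 100 bp. NRF1 (GCATGCGC) was matched in 2.18% and 0.658%. ETS (CNGGAAGT) stood at 9.90% and 9.40%, against 4.16% of coding exons, with the difference of opposite sign in the central 100 bp (-0.367 points), and TCF/LEF (ATCAAAG) at 2.97% and 3.59%. The 29 members with a RUNX match had median relative heights of 0.331, 0.257, 0.244 and 0. Replicate 4 called 10.3% of them (3.58 to 26.4%), against 29.7% of all members, and their mean there was 0.0744 against 0.276.

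The share of sites with a footprint differed between members and intron sites by less than the spread between libraries. A footprint overlapped 92.1, 90.9, 86.5 and 15.6% of members in replicates 1 to 4 and 93.9, 92.5, 83.7 and 9.48% of intron sites. The differences were -1.86, -1.57, 2.84 and 6.16 percentage points (mean 1.39 ± 3.84, SD, n = 4; exact sign-flip p = 0.625). Replicates 1 and 2 lay on one side of 0 and replicates 3 and 4 on the other, and without replicate 4 the mean difference was 0.0655 ± 2.39 points (SD, n = 3). A footprint in at least 3 libraries was found in 394 members and in 0 libraries for 8. The same counts over intron sites are not given here, so these numbers do not set members apart. Footprints in members had median widths of 10, 11, 10 and 9 bp, and 75, 74.0, 79.3 and 81.4% of them were centred in coding bases. Coding bases made up 70.0% of the sites' bases. The rule placed every midpoint in coding bases, and footprints were most frequent beside midpoints. A share above 70.0% therefore does not show that footprints favour coding bases.

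At the midpoint, footprints lay less often over members than over intron sites in the deeper libraries. In the 10 bp just after it, 37.1, 34.6, 30.2 and 3.52% of members were inside a footprint in replicates 1 to 4, against 42.4, 42.7, 32.6 and 2.58% of intron sites. Replicates 1 to 3 ran one way and replicate 4 the other.

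**Figure D5:**
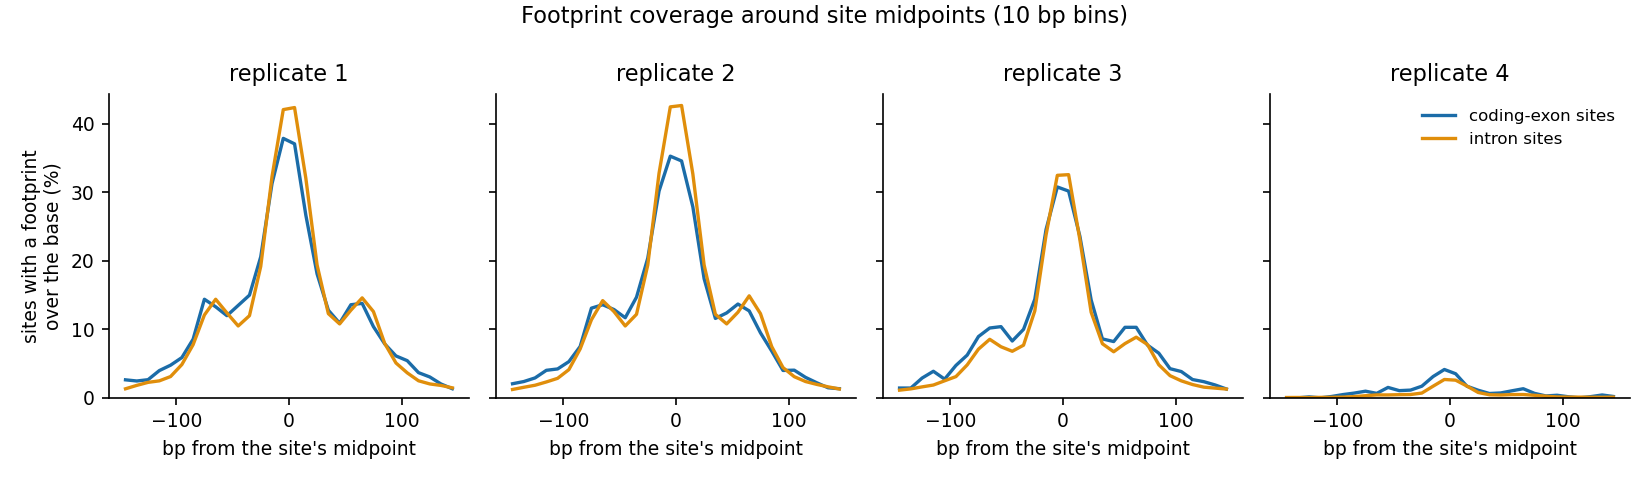
Share of coding-exon (blue) and intron (orange) sites with a footprint over the base, by distance from the site's midpoint in 10 bp bins, 1 panel per replicate. Both classes are highest beside the midpoint: coding-exon sites reach 37.9% in replicate 1 and 4.14% in replicate 4, both in the 10 bp before it, and intron sites reach 42.4% in replicate 1 (after it) and 2.68% in replicate 4 (before it).

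The members with the most footprints summed over libraries were those of Fbxl22 (34), Gdf15 (33), Angptl6 (29), Unc13a (28) and B4galnt1 (24), all among the 20 tallest. Gdf15 had 7, 11, 8 and 7 of them in replicates 1 to 4, the most of these 5 in replicate 4. These sites were 360 to 440 bp wide, above the median of 240 bp.

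Of the host genes, 25 had at least 2 members, and Dst and Sptbn4 had 3. Dst encodes dystonin, a giant linker of the cytoskeleton. Its tallest site (0.664, 0.674, 0.677 and 0.965) held both the CTCF consensus and the core, and 2 lower ones lay in the same coding exon of 5292 bp, with means of 0.137 and 0.0754. Sptbn4 had sites at 1.27, 1.74, 1.88 and 1.75, at 0.356, 0.282, 0.337 and 0.526, and at 0.176, 0.116, 0.223 and 0.491, in 3 different exons and each with a core match. All 3 were called in all 4 libraries, and the order of the sites was the same in each. By the alphabet the next genes with 2 members were B3gnt6, BC034090 and Baiap2l2.

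Genes of T cell function with a coding-exon site were 3 in each of 2 lists. In the T cell identity and receptor signalling list 3 of 32 genes (9.38%) had one, beside 2.31% of all protein-coding genes, and 28 of the 32 had a promoter site. They were Plcg1, the phospholipase downstream of the receptor (0.616, 0.432, 0.557 and 0), Prkcq, protein kinase C theta (0.407, 0.368, 0.371 and 0), and Cblb, a ubiquitin ligase that restrains activation (0.184, 0.185, 0.223 and 0). All 3 lacked a call in replicate 4, and the Cblb site had no footprint in any library. Among naive and quiescent T cell genes, 3 of 19 (15.8%) had a site. S1pr1, the receptor for egress from lymph nodes, was at 0.336, 0.286, 0.570 and 0, and Ccr7, the lymph node homing receptor, at 0.347, 0.248, 0.464 and 0. Both sites were near the median of members and were highest in replicate 3. The list genes have longer or shorter coding sequences than the 1188 bp median of all genes (medians 1701 and 1134 bp), and the counts are too small to read against the background.

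Of 62 lymphoid transcription factor genes, 1 had a site: Nfkb2, a subunit of NF-kB, in an internal coding exon (chromosome 19, 46309161 to 46309360). Its relative heights of 0.742, 0.914, 0.773 and 1.21 had the highest mean of any list gene (0.910), with a core match in the printed window. Among 55 chromatin regulators, Kmt2a, a histone H3 lysine 4 methyltransferase, had 0.876, 0.701, 0.790 and 0.632 (chromosome 9, 44836541 to 44836720). Kmt2a was above Nfkb2 in replicates 1 and 3 and below it in replicates 2 and 4. Hdac4, a histone deacetylase, and Chd1, a chromatin remodeller, were low, with means of 0.143 and 0.112. The CD8 lineage list (6 genes), the cytotoxic effector list (14) and the housekeeping list (19) had 0 genes with a coding-exon site. Of lymphoid factors 1.61% had one and of chromatin regulators 5.45%, beside 2.31% of all protein-coding genes. Chromatin regulators have a median coding length of 5133 bp, against 1188 bp over all genes. At a share of 2.31%, lists this short can readily hold 0 genes, so these counts do not set them apart.

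Lists of other cell types held 5 genes with a member, shares that are as thinly filled as those above and stand beside the same 2.31%. The B cell list held Spib, an ETS factor (0.193, 0.208, 0.375 and 0.649), and Bank1, a B cell adaptor (0.171, 0.0933, 0.137 and 0), or 2 of 17 genes (11.8%). Spib was highest in replicate 4 and next in replicate 3, as the Cd79a and Pax5 promoters were, while Bank1 was highest in replicate 1 and without a call in replicate 4. Both promoters were picked from the list of 17 genes after their values were seen. Of these 17 genes, 11 had a promoter site, and promoter heights are given here for Cd79a and Pax5 only. Members outside the list had the same order, such as Gdf15 (2.10 in replicate 3 and 2.61 in replicate 4) and Hey1 (1.25 and 1.79). The part of B cells in the order at Spib was not tested. The myeloid list held 1 of 19 (5.26%), Spi1, the factor PU.1 (0.202, 0.280, 0.213 and 0). The neural list held 1 of 16 (6.25%), Gfap, the astrocyte filament protein (0.271, 0.310, 0.368 and 0), and the hepatocyte list 1 of 13 (7.69%), Apoa1, the main protein of high density lipoprotein (0.178, 0.210, 0.186 and 0). Spi1, Apoa1 and Prkcq each held a core match.

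The central 36 bases of 499 members occurred at 1 place in chromosomes 1 to 19. The other 6, in Prune1, H3f3a, Slbp, Eppk1, Muc6 and Cyp4f40, had more than 1 place there, 12 for the H3f3a window and 2 for each of the others, and their peaks could not be assigned to one place with certainty.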

How the data were processed

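DNase-seq peaks, footprints and cut-rate intervals of 4 libraries were taken as deposited, on mm10 per the labels. The aligner and the callers were not given in the sources used here. For each library, the deposited peak height is a signal scaled to the depth of its library by the authors, and the step between heights gave the tags per library (whole multiples within 0.05). The deposited footprint value is read as a false discovery rate (p-value or q-value) threshold of 0.01, and the deposited cut-rate value as a p-value or q-value per interval, below 0.05.

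Peaks of the longer list were merged at 1 bp, and sites in at least 3 libraries were classed with GENCODE mouse release 21. Sequence came from the RefSeq genome GRCm38.p6, and starts of its annotation were a second set. Windows of coding exons were centred on exon midpoints, those of sites on site midpoints. Libraries were compared with exact two-sided sign-flip permutations. The height comparison was planned over 4 libraries and ran over 3, since both medians were 0 in replicate 4. No read counts were used, so single heights have no counting interval, and binomial intervals cover counting of sites only.

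Named were the genes of the 20 tallest sites, of the 5 with most footprints, the 5 genes with most sites and every site in a gene of 11 lists, up to 4 per list, of which 1 is not reported here. The members and lists were chosen with earlier results of these data known. Genes named for CTCF matches, the copies and the label genes were picked after their values were seen. Software was bedtools 2.31.1, samtools 1.23.1 and Python 3.11.15 with scipy 1.17.1, numpy 2.4.6, matplotlib 3.10.9 and pandas 2.3.3, and the steps were tested on simulated data. Alternatives are given in the closing section.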

Additional observations from a re-analysis of the deposited data

Results flagged for a closer look

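Each of 42 results with a value in all 4 libraries was searched for a library whose gap to the nearest other, over the whole range, passed Dixon's 95% critical value for 4 values, which chance does in about 1 in 20 such groups. In 8 results a library did, and in each it was replicate 4, whose height step reads as 24.3 M tags, the lowest. Members needed calls in at least 3 of 4 libraries, so missing calls fell mostly to the library with the fewest peaks. The share called, the median and mean heights and the sites at 0 restate those missing calls. The rate of 1 in 20 does not apply to them. It called 29.7% of coding-exon sites, gave them a median relative height of 0 and a mean of 0.276, and had a footprint at 15.6% of them. Over the 150 members it called, the median relative height was 0.746. In replicates 1 to 3 it was 0.314, 0.303 and 0.309 over 504, 503 and 504 called members, which is a different set of sites. Called intron sites showed the same, with 0.632 in replicate 4 against 0.342, 0.314 and 0.292. Fbxl22 stood at 2.14 in replicate 4, above the others. The sites of Prkcq and Apoa1 were at 0 there because the library had no call.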

How the results depend on the processing

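The number of coding-exon sites was 327 on the shorter peak lists, 146 with all 4 libraries needed and 160 with the 20647 highest peaks of each library, against 505, and ran from 148 to 500 when 1 library was left out, lowest without replicates 1, 2 or 3 since replicate 4 must then call every site. Genes sharing a coding interval with a site numbered 319, 140 and 155 under the same settings and 142 to 475 with 1 library left out, against 480. The share of sites over 1 kb from a start ran from 2.33 to 2.63% with 1 library left out, and was 2.58% with all 4 needed, 2.81% at over 500 bp from a start, 1.98% at over 2500 bp, 2.02% where at least 50% of the site's bases had to be coding, and 2.12% in replicates 1 and 2, against 2.34%. The share called in all 4 libraries, not defined where fewer libraries were used, was 24.5% on the shorter lists, 20% with at least 2 libraries and 66.9% with equal numbers of peaks, against 28.9%. The log2 height ratio of members to intron sites, -0.04, had no stable sign: it was 0.17 on the shorter lists, 0.14 with all 4 libraries, 0.0147 with at least 2, 0.17 with equal numbers of peaks, 0.11 with 50% reciprocal overlap, 0.0366 over called sites, 0.21 for means, 0.0120 in replicates 1 and 2 (chosen after seeing the data), and -0.0249 to 0.17 with 1 library left out. The footprint difference, 1.39 percentage points, was -0.699 at over 500 bp, -1.21 in the upper group of 3 by height, -0.375 in replicates 1 and 2, and 0.0655 to 3.39 with 1 library left out. The median GC difference of 7.50 points was 6.0 in the central 100 bp and 7.33 in 300 bp. In motif share against intron sites, RUNX (-4.62 points) was -3.24 in 100 bp and -6.14 in 300 bp, the E-box (4.69) was 1.08 in 100 bp, ETS (0.496) was -0.367 in 100 bp, and the CTCF difference (-3.11) was 12.6 for the added core. Cut-rate intervals at members not called in replicate 4 fell from 5.35% to 0.282% below 0.01 and 0.282% below 0.001. For results that changed sign or size the cause was not tested, apart from the fewer calls above. Of 99 values under alternatives, 53 stayed within the tolerance used: 1.5 times for numbers of sites or genes, the Wilson interval for shares, the same sign for height and footprint differences, and 1 SD over libraries for composition and motif differences. No paired analysis was possible because there was 1 group. In replicate 4, which had the fewest peaks, a missing call does not tell a low member from an absent one.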
